A study of Mus musculus with 8 samples.

Results

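Interferon response genes are the genes that cells switch on when an interferon binds its receptor. A fixed set of 41 such mouse genes was followed in 2 kinds of blood-forming cell. Long-term hematopoietic stem cells, or LT-HSC, sustain blood production over a lifetime, and multipotent progenitors, or MPP, arise from them and have little or no self-renewal. The members were chosen by gene symbol, with earlier results of these data known, and all 41 are listed in both deposited tables, which hold 19685 genes for LT-HSC and 18904 for MPP. RNA was sequenced from 8 libraries in 4 groups of 2, the LT-HSC KO, the LT-HSC WT, the MPP KO and the MPP WT group. KO stands for Tet1 knockout and WT for wild type, and the Tet1 enzyme takes part in removing DNA methylation by oxidizing it. All cells were flow sorted from bone marrow of 6-month-old mice of the strain labelled CD57BL/6, 20 weeks after a transplant of Tet1 KO or WT marrow, so every group comes from transplanted animals. Each library held RNA from 10000 LT-HSC or 100000 MPP. The Tet1 allele, the sort gates, the number of animals per library and whether the 2 libraries of a group came from separate animals were not stated in the labels. The p-values below therefore measure the spread between 2 libraries, which may be technical.

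Type I interferons signal through the receptor chains Ifnar1 and Ifnar2 and the Jak kinases to a complex that contains Stat2 and Irf9 and binds the interferon-stimulated response element (ISRE). Interferon gamma signals through Ifngr1 and Ifngr2 and acts on genes with a gamma-activated site (GAS), among them Irf1 and many GTPase genes of cell-intrinsic immunity. Blood stem cells are known to carry some of these gene products without infection, and interferon is known to drive resting stem cells into cycle.

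The total count per library was 5356505 and 5059917 in LT-HSC KO, 5479731 and 4976459 in LT-HSC WT, and 11928659 to 12504581 in the MPP libraries. LT-HSC markers summed to 2283 to 2345 counts scaled to library size (CPM) in WT LT-HSC, against 915.4 to 921.1 CPM in WT MPP. MPP markers summed to 152.4 to 171.7 CPM in WT LT-HSC, against 1628 to 1662 CPM in WT MPP. Tet1 itself had 336 and 379 counts in the LT-HSC KO libraries, against 332 and 428 in LT-HSC WT, and 765 and 855 counts in MPP KO against 1207 and 1323 in MPP WT. The deleted part of the gene is not given, so the count over the whole gene does not check the genotype labels. In both populations all 4 Y-linked check genes fell in KO, with a sum of 12 to 14 CPM in LT-HSC KO against 143.8 to 169.5 CPM in LT-HSC WT, and of 3.05 to 5.82 CPM in MPP KO against 165.5 to 174.8 CPM in MPP WT. The sex of the cells and the genotype cannot be told apart in these groups. In the LT-HSC KO libraries, long genes that were almost silent in LT-HSC WT carried 0.324 and 0.299 counts per kb of gene span, against 0.0145 and 0.0159 in LT-HSC WT and 0.0129 to 0.025 in MPP. These genes were chosen for few counts in LT-HSC WT, so their low rate there follows in part from the choice. Genes of the set that truly rose in KO could raise the KO rate, which is taken here as a background. That background would make up a median of 2.65% of the LT-HSC KO counts of a member, but 72.4% for Gbp1, 20.4% for Mx2, 14.7% for Oasl1 and 11.2% for Ifit3, and more than the counts found for Mx1 (123.6%).

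The promoters of a few members are printed here so that the letters of the ISRE and the GAS can be seen in members that fell, in members that rose and, for Irgm2, in a member that passed in neither KO comparison. RefSeq promoters on GRCm38.p6, from 250 bases before to 50 bases after the gene's start, were matched for 31 of the 41 members. The ISRE core, searched on both strands as GAAA, NN and GAAA in a row with N for any base, was held by 18 of these 31 members (58.1%), against 3.99% of all 27025 genes in the promoter table. The GAS core, searched on both strands as TTC, NNN and GAA in a row, was held by 10 of the 31 (32.3%), against 9.55% of all genes. Below are the 150 bases before the start, 5′ to 3′ along each gene, with matches to either core in capitals. They lie at chr3:142620513-142620662 on the + strand for Gbp2, chr11:58199406-58199555 on the + strand for Igtp, chr11:58214827-58214976 on the + strand for Irgm2, chr8:71537473-71537622 on the − strand for Bst2, chr11:53769864-53770013 on the + strand for the upstream of the starts listed for Irf1, chr12:26456453-26456602 on the − strand for Rsad2 and chr11:72301479-72301628 on the + strand for Xaf1.
Gbp2: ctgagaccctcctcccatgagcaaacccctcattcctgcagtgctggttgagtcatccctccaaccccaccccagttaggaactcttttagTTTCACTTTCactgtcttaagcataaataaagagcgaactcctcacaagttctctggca
Igtp: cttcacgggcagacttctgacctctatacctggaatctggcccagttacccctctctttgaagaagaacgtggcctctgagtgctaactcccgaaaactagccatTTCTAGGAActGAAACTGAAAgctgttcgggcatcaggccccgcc
Irgm2: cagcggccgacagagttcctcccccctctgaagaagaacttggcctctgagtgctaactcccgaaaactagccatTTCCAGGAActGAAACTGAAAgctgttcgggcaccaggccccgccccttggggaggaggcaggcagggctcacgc
Bst2: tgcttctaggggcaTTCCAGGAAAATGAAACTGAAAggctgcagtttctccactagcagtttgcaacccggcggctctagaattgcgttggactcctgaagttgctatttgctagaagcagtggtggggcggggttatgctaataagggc
Irf1: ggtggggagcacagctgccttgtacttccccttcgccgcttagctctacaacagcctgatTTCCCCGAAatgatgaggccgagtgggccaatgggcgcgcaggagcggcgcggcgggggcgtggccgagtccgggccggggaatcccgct
Rsad2: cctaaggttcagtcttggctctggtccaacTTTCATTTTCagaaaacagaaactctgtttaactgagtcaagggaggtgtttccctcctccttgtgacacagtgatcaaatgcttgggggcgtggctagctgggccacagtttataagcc
Xaf1: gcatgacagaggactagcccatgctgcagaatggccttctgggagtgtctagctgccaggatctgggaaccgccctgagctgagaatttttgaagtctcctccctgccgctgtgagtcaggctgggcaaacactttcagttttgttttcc

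In the neighbouring genes Igtp and Irgm2 a GAS core stands just before an ISRE core, the first letters of the pair lying 45 and 34 bases before the start in Igtp and 75 and 64 bases before it in Irgm2. In Bst2 the GAS core, 136 bases before the start, runs into overlapping ISRE cores 130 and 124 bases before it. Gbp2 holds an ISRE core on the opposite strand 59 bases before its start and Rsad2 holds such a core 120 bases before its start. Irf1 holds a GAS core 90 bases before this start. Neither core was found in the Xaf1 window. A match is a description of these letters and does not show that a factor binds there.

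Interferon response genes were mostly lower in LT-HSC KO than in LT-HSC WT. Guanylate-binding protein genes, Irf1, Igtp, Bst2, Ifitm3 and the oligoadenylate synthetase family genes Oasl2 and Oas3 fell, while Xaf1, Usp18 and Isg20 rose. Of 40 members tested, 9 fell (22.5%, against 10.9% of all genes tested) and 3 rose (7.5%, against 22.5% of all genes tested), by the quasi-likelihood test of edgeR at an adjusted p under 0.05 (Benjamini-Hochberg, over all 15684 genes). The median log2 fold change of KO over WT was -0.34 over the members, against 0.03 over all genes tested and -0.18 over abundant genes with a mean log2 CPM above 6. Of the 40 members, 32 had a negative fold change (80%, against 48.3% of all genes). Both KO libraries lay below both WT libraries in CPM for 22 members (55%, against 30.4% of all genes), and above both for 3 members (7.5%, against 36.1%). The shares over all genes depend on the background described above. With it subtracted, 1331 of all 14038 genes tested rose and 907 fell, beside 3 and 4 of the 40 members.

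**Figure D1:**
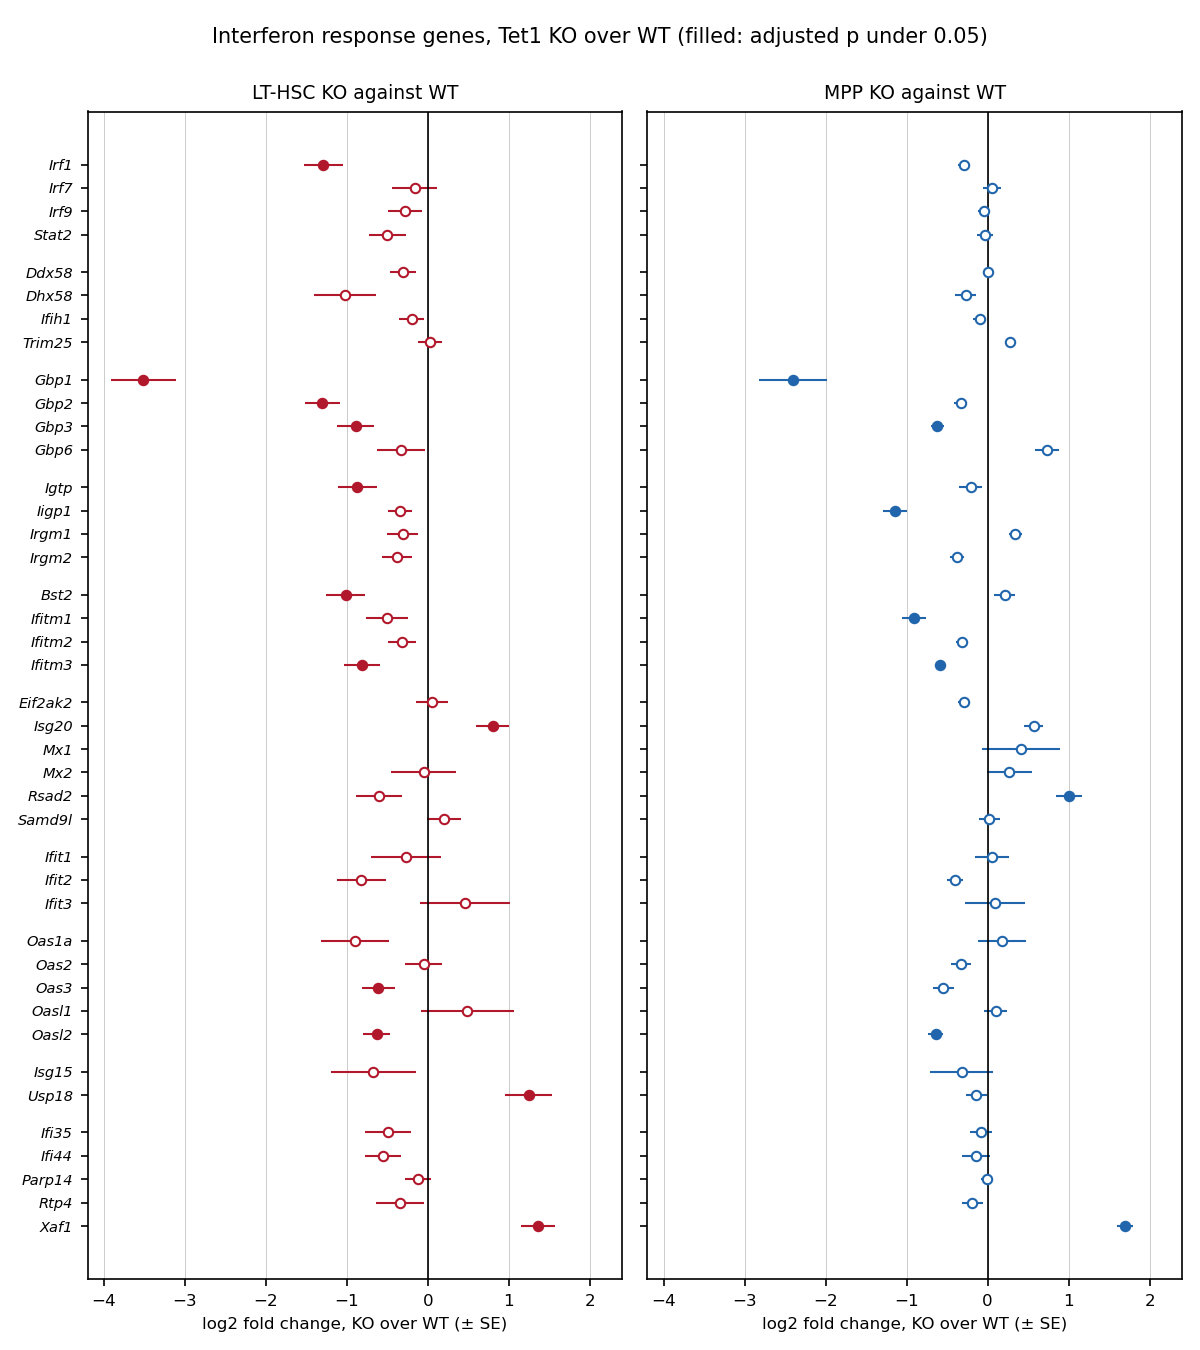
Log2 fold change of KO over WT with its standard error for each interferon response gene, in LT-HSC on the left and in MPP on the right, with genes grouped by role. Filled points had an adjusted p under 0.05. Gbp1 lies farthest left in both panels and Xaf1 farthest right in both, while Usp18 is filled in LT-HSC and Rsad2 in MPP. Mx1 was not tested in LT-HSC.

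Among the regulators, Irf1 fell and the other 3 members did not pass the test. Irf1, a transcription factor induced by interferon gamma, had 455 and 340 counts in the LT-HSC KO libraries, against 1199 and 756 in LT-HSC WT, a log2 fold change of -1.29 (SE 0.24, edgeR adjusted p = 0.00438). Both KO libraries lay below both WT libraries, which themselves differed. Irf9, the DNA-binding subunit of the ISRE complex, had 447 and 347 counts in the LT-HSC KO libraries, against 566 and 397 in LT-HSC WT, and its groups overlapped, at 81 and 66.5 CPM in LT-HSC KO against 103.5 and 76.3 CPM in LT-HSC WT. Its log2 fold change was -0.28 (SE 0.21, edgeR adjusted p = 0.367). The fold changes of Stat2 and of Irf7, the master regulator of type I interferon genes, were -0.50 (SE 0.23, edgeR adjusted p = 0.13) and -0.16 (SE 0.28, edgeR adjusted p = 0.704).

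The guanylate-binding proteins are large GTPases that attack the vacuoles of intracellular pathogens, and 3 of the 4 members fell. Gbp1 had 7 and 14 counts in the LT-HSC KO libraries, against 131 and 111 in LT-HSC WT, a log2 fold change of -3.51 (SE 0.40, edgeR adjusted p = 0.000675). Gbp2 had 316 and 253 counts in the LT-HSC KO libraries, against 839 and 567 in LT-HSC WT, a log2 fold change of -1.30 (SE 0.22, edgeR adjusted p = 0.00296). With the background described above subtracted, Gbp1 had a log2 fold change of -4.88 (edgeR adjusted p = 0.0106). The groups lay far apart for Gbp1, whose KO counts were few, and did not overlap for Gbp2. Gbp3 had 298 and 233 counts in the LT-HSC KO libraries, against 600 and 389 in LT-HSC WT, a log2 fold change of -0.89 (SE 0.23, edgeR adjusted p = 0.0194). Gbp6, with 221 and 124 counts in the LT-HSC KO libraries, against 256 and 178 in LT-HSC WT, did not pass, and its groups overlapped. Gbp1, Gbp2 and Gbp3 lie within 78 kb of chromosome 3 on mm9 and are close in sequence, so how the authors' counting placed shared reads could move their counts.

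The immunity-related GTPases act on the membranes around intracellular parasites and bacteria. Igtp had 462 and 338 counts in the LT-HSC KO libraries, against 886 and 581 in LT-HSC WT, a log2 fold change of -0.87 (SE 0.24, edgeR adjusted p = 0.022). The KO libraries lay below the WT libraries, as they did for its neighbour Irgm2, whose promoter holds the same pair of cores: 59.9 and 51.5 CPM in LT-HSC KO against 79.6 and 67.1 CPM in LT-HSC WT. Irgm2 did not pass, at -0.38 (SE 0.19, edgeR adjusted p = 0.162). Iigp1 had 543 and 519 counts in the LT-HSC KO libraries, against 666 and 679 in LT-HSC WT, and did not pass either (-0.34, SE 0.15, edgeR adjusted p = 0.125), although its groups did not overlap.

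Of the 4 membrane restriction factors, Bst2 and Ifitm3 fell. Bst2, also called tetherin, holds budding virus particles at the cell surface. It had 98 and 77 counts in the LT-HSC KO libraries, against 182 and 170 in LT-HSC WT, a log2 fold change of -1.01 (SE 0.24, edgeR adjusted p = 0.012). Ifitm3 blocks the fusion of viruses with endosomes. Its counts were 1058 and 741 in LT-HSC KO, against 1828 and 1330 in LT-HSC WT, a log2 fold change of -0.81 (SE 0.22, edgeR adjusted p = 0.0226). For both genes the KO libraries lay below the WT libraries. Ifitm2, a close relative of Ifitm3, had 491 and 565 counts in the LT-HSC KO libraries, against 605 and 716 in LT-HSC WT, and did not pass (-0.32, SE 0.17, edgeR adjusted p = 0.195). The Ifitm genes are close in sequence, so reads shared between them are uncertain too.

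The oligoadenylate synthetase family senses double-stranded RNA and, in its catalytic members, activates RNase L. Oasl2 had 238 and 259 counts in the LT-HSC KO libraries, against 368 and 404 in LT-HSC WT, a log2 fold change of -0.63 (SE 0.17, edgeR adjusted p = 0.0242). Oas3 had 179 and 151 counts in the LT-HSC KO libraries, against 241 and 262 in LT-HSC WT, a log2 fold change of -0.61 (SE 0.20, edgeR adjusted p = 0.046). In both genes all KO libraries were below the WT libraries. The other 3 members of the family did not pass. Oas1a showed a wide spread within groups, with 30.6 and 18.4 CPM in LT-HSC KO against 64.9 and 26.9 CPM in LT-HSC WT.

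Against the general direction, 3 members rose in LT-HSC KO. Xaf1 encodes a partner of the apoptosis inhibitor XIAP that promotes cell death. It had 344 and 290 counts in the LT-HSC KO libraries, against 136 and 112 in LT-HSC WT, a log2 fold change of 1.36 (SE 0.21, edgeR adjusted p = 0.00206). Usp18, which removes Isg15 from proteins and dampens signalling at the type I receptor, had 110 and 125 counts in the LT-HSC KO libraries, against 56 and 43 in LT-HSC WT, a log2 fold change of 1.25 (SE 0.29, edgeR adjusted p = 0.0107). Isg20, an exonuclease that degrades single-stranded RNA, had 271 and 276 counts in the LT-HSC KO libraries, against 175 and 140 in LT-HSC WT, a log2 fold change of 0.80 (SE 0.20, edgeR adjusted p = 0.0161). In all 3 genes the KO libraries lay above both WT libraries.

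The RNA sensors did not pass. Ddx58, the cytosolic RNA sensor RIG-I, had 392 counts in each LT-HSC KO library, against 471 and 502 in LT-HSC WT (-0.31, SE 0.16, edgeR adjusted p = 0.173). Trim25, the ubiquitin ligase that activates it, had 876 and 834 counts in the LT-HSC KO libraries, against 843 and 832 in LT-HSC WT (0.03, SE 0.15, edgeR adjusted p = 0.893). Parp14, a mono-ADP-ribosyltransferase, had 434 and 413 counts in the LT-HSC KO libraries, against 439 and 483 in LT-HSC WT (-0.12, SE 0.16, edgeR adjusted p = 0.608). The Trim25 libraries of the 2 genotypes lay within a narrow band in CPM. Dhx58, another RNA sensor, had 58 and 41 counts in the LT-HSC KO libraries, against 133 and 69 in LT-HSC WT. It did not pass either (-1.02, edgeR adjusted p = 0.071), although its KO libraries lay below its WT libraries in CPM. All members that did not pass had fold changes from -1.02 (Dhx58) to 0.49 (Oasl1). Isg15, the ubiquitin-like modifier, and Ifit1 and Ifit3, which bind viral RNA, were scarce. They had 2.17 to 7.85 CPM in LT-HSC KO and 1.28 to 10.8 CPM in LT-HSC WT. Ifit2, of the same family as Ifit1, was more abundant and did not pass (-0.82, edgeR adjusted p = 0.0671). Its KO libraries, at 17.4 and 22.2 CPM, lay below its WT libraries, at 25.2 and 45.3 CPM. Mx1, an antiviral GTPase, was too low to be tested, with 4 counts in each LT-HSC KO library against 0 in each LT-HSC WT library. Set against 3 counts over the WT group it was at least 2.65-fold higher in KO, but the background per kb would by itself give 9.89 counts over its span in the KO group.

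**Figure D2:**
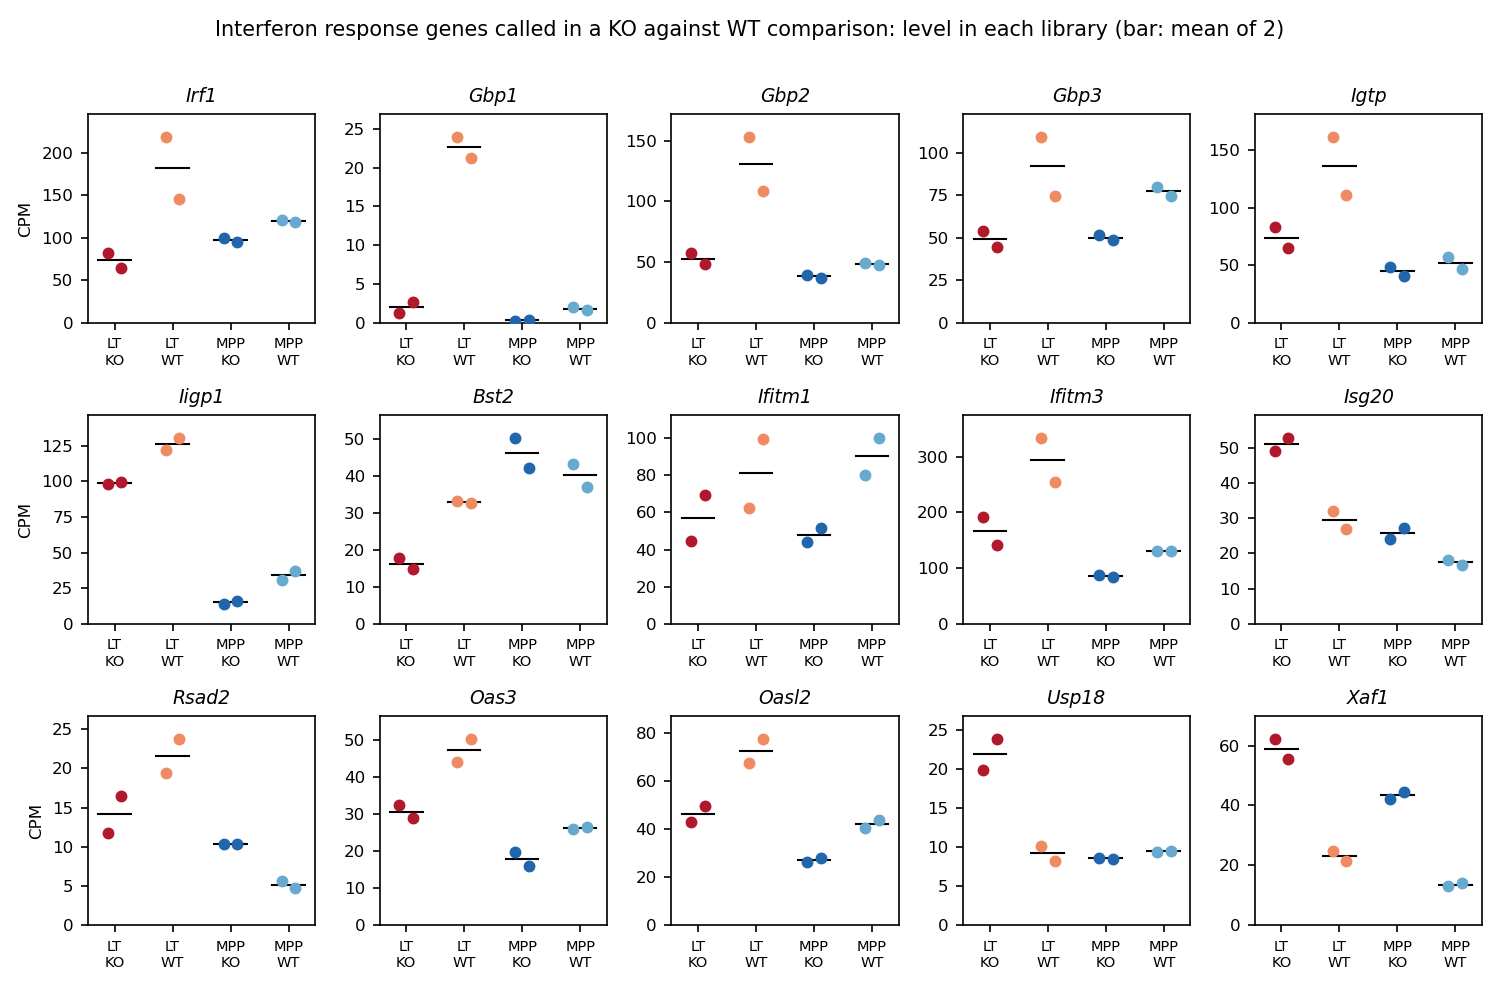
CPM in each library for the 15 members that passed the test in at least 1 KO against WT comparison, with LT standing for LT-HSC. Each point is a library, the bar is the mean of 2, and each vertical axis starts at 0. Gbp1 is near 0 in every group except LT-HSC WT, and Xaf1 is higher in KO than in WT in both populations.

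Markers of other cells moved with these results in LT-HSC. The 7 erythroid markers all rose, with a sum of 2190 to 3077 CPM in LT-HSC KO against 323.6 to 513.4 CPM in LT-HSC WT. All 6 stromal and bone markers rose, with 452.8 to 648.7 CPM in LT-HSC KO against 22.7 to 25.8 CPM in LT-HSC WT, where Cxcl12 and Bglap were at 0. The monocyte, macrophage and neutrophil markers summed to 47.1 to 53.1 CPM in LT-HSC KO against 19.6 to 22.9 CPM in LT-HSC WT, where S100a8 and Ngp were at 0, and 3 of the 6 tested rose. The T and NK markers summed to 13 to 14.2 CPM in LT-HSC KO against 70.6 to 72.8 CPM in LT-HSC WT, where Cd8a was at 0, and 2 of the 3 tested fell. The plasmacytoid dendritic markers, a list that includes Bst2, summed to 161.1 to 163.5 CPM in LT-HSC KO against 183.8 to 193.7 CPM in LT-HSC WT. Of the 5 tested, 2 rose and 1, Bst2, fell. LT-HSC markers summed to 1670 to 1695 CPM in LT-HSC KO against 2283 to 2345 CPM in LT-HSC WT, and 2 of 8 fell. MPP markers summed to 114.3 to 117.9 CPM in LT-HSC KO against 152.4 to 171.7 CPM in LT-HSC WT. Of the 5 MPP markers tested, 3 fell and 1 rose. The part of these markers in the change of the interferon response genes was not tested. In such bulk samples, fewer cells of a type and less RNA per cell cannot be told apart.

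The calls of Gbp1, Gbp2, Irf1 and Xaf1 in LT-HSC held under all 10 alternatives tried. With all libraries but no filter, Gbp3, Igtp, Ifitm3 and Oas3 did not pass, at edgeR adjusted p of 0.052, 0.0586, 0.0574 and 0.0536. Under upper quartile scaling Oas3 and Oasl2 did not pass, at edgeR adjusted p of 0.0848 and 0.0546. Nor did these 2 pass by DESeq2, at DESeq2 adjusted p of 0.0958 and 0.0506. Without LT-HSC KO replicate 1 or 2, fewer members passed, and so did fewer of all genes. Without LT-HSC WT replicate 2, more members fell, as did more of all genes. With 1 LT-HSC library left out, the median fold change over the members was -0.41 to -0.37, against 0.01 to 0.09 over all genes. When the background per kb was subtracted from every gene, 4 members still fell (Gbp1, Gbp2, Irf1 and Bst2) and the 3 that rose still did. Of all 14038 genes tested in that fit, 907 fell and 1331 rose. Gbp3, Igtp, Ifitm3, Oasl2 and Oas3 no longer passed, at fold changes of -0.74, -0.71, -0.63, -0.49 and -0.50 and edgeR adjusted p from 0.0733 to 0.129. The background would make up only 1.54%, 0.626%, 0.041%, 1.92% and 4.64% of their LT-HSC KO counts, in that order. Genes were filtered and libraries scaled anew after the subtraction, so the shifts in fold change include a change of scaling. Without LT-HSC KO replicate 1 or 2, the calls of Bst2, Gbp3, Igtp, Oasl2, Oas3, Isg20 and Usp18 were lost, with edgeR adjusted p from 0.0526 to 0.331, and that of Ifitm3 was lost without LT-HSC KO replicate 2, at 0.216. Without LT-HSC KO replicate 1 and without replicate 2, the fold changes were -1.18 and -0.85 for Bst2, -1.07 and -0.73 for Gbp3, -1.10 and -0.67 for Igtp, -0.56 and -0.70 for Oasl2, -0.72 and -0.49 for Oas3, 0.82 and 0.78 for Isg20 and 1.35 and 1.15 for Usp18. In these fits the share of all genes that passed as lower was 2.36% and 3.02%. The call of Oas3 was also lost without LT-HSC WT replicate 2, at 0.0675. Without LT-HSC WT replicate 1, the fold changes of Gbp3 and Igtp were -0.59 and -0.57 (edgeR adjusted p of 0.0474 and 0.0428).

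**Figure D3:**
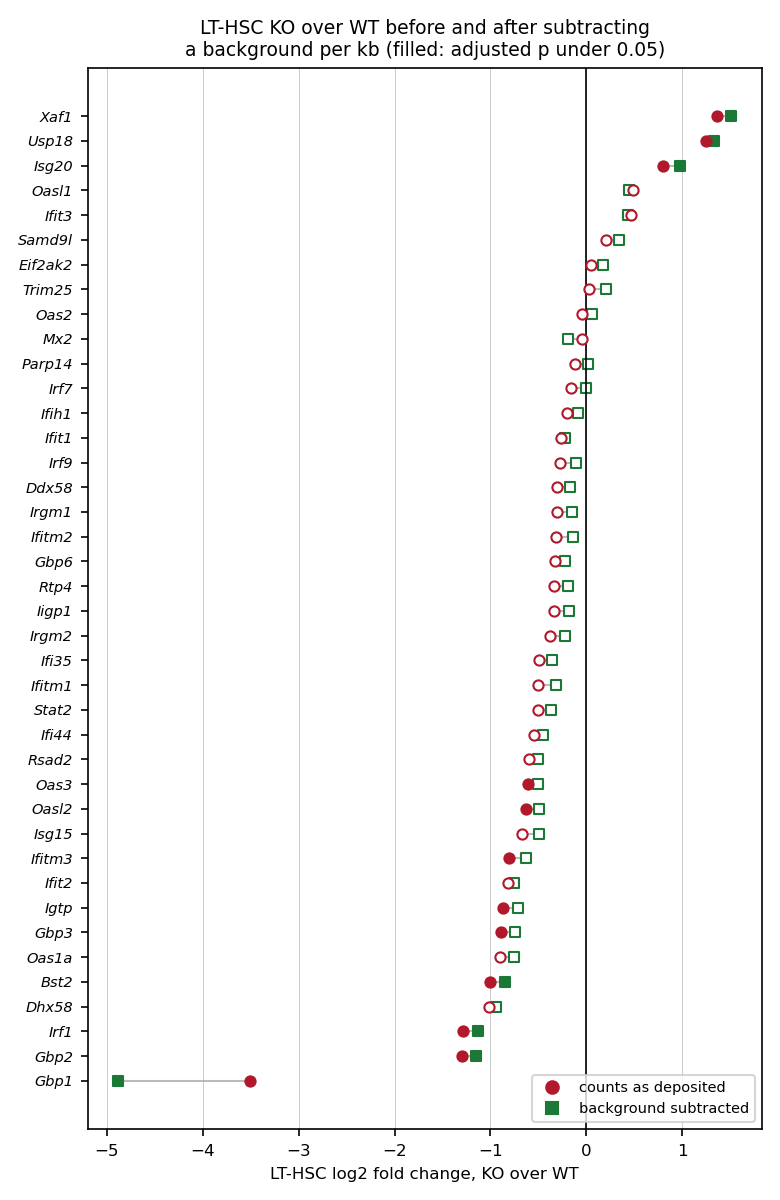
LT-HSC log2 fold change of KO over WT for the 40 tested members, as deposited (circles) and after subtraction of the background per kb in each library (squares). Filled symbols had an adjusted p under 0.05. Most members move to the right, the median from -0.34 to -0.22, while Gbp1 moves to -4.88. Libraries were scaled anew after the subtraction, so the shifts include a change of scaling.

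In MPP, Gbp1, Iigp1, Ifitm1, Oasl2, Gbp3 and Ifitm3 fell in KO, and Xaf1 and Rsad2 rose. Of the 41 members tested, 6 fell (14.6%, against 2.46% of all 14902 genes tested) and 2 rose (4.88%, against 4.74% of all genes), so the share that rose was near the background. The median log2 fold change was -0.10 over the members, against -0.01 over all genes. Both KO libraries lay below both WT libraries for 19 members (46.3%, against 28.2% of all genes) and above both for 6 (14.6%, against 27.3%).

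Among the GTPases, Gbp1 had 3 and 5 counts in MPP KO, against 24 and 20 in MPP WT, a log2 fold change of -2.40 (SE 0.42, edgeR adjusted p = 0.0386). Gbp3 had 608 and 580 counts in MPP KO, against 958 and 894 in MPP WT, a log2 fold change of -0.62 (SE 0.08, edgeR adjusted p = 0.0181). Iigp1, which damages the vacuoles of parasites, had 167 and 195 counts in MPP KO, against 368 and 445 in MPP WT, a log2 fold change of -1.14 (SE 0.15, edgeR adjusted p = 0.0189). The KO libraries lay below the WT libraries in all 3 genes, and Gbp1 was close to absent in MPP of either genotype.

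Of the membrane factors, Ifitm1 had 517 and 613 counts in MPP KO, against 957 and 1199 in MPP WT, a log2 fold change of -0.91 (SE 0.15, edgeR adjusted p = 0.0325). Ifitm3 had 1038 and 1005 counts in MPP KO, against 1557 and 1565 in MPP WT, a log2 fold change of -0.59 (SE 0.06, edgeR adjusted p = 0.0127). Ifitm2 had 1446 and 1459 counts in MPP KO, against 1812 and 1872 in MPP WT, and missed the threshold (-0.32, SE 0.07, edgeR adjusted p = 0.0526). All 3 Ifitm genes had both KO libraries below both WT libraries. Oasl2 had 310 and 330 counts in MPP KO, against 484 and 526 in MPP WT, a log2 fold change of -0.64 (SE 0.09, edgeR adjusted p = 0.0261).

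Xaf1 had 499 and 529 counts in MPP KO, against 154 and 166 in MPP WT, a log2 fold change of 1.70 (SE 0.10, edgeR adjusted p = 0.00288). Rsad2, the antiviral enzyme viperin, had 122 and 123 counts in MPP KO, against 67 and 56 in MPP WT, a log2 fold change of 1.01 (SE 0.16, edgeR adjusted p = 0.0305). Both genes had KO libraries above WT libraries with little spread within a group.

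Among abundant members that did not pass in MPP, Irf1 had 1185 and 1123 counts in MPP KO against 1442 and 1421 in MPP WT (-0.29, SE 0.07, edgeR adjusted p = 0.0675). Trim25 had 2610 and 2570 counts in MPP KO against 2214 and 2103 in MPP WT (0.28, SE 0.07, edgeR adjusted p = 0.0713). In both genes the KO and WT libraries did not overlap. Parp14, Irf9 and Samd9l, a growth-restraining antiviral factor, had fold changes of -0.01, -0.05 and 0.02, with edgeR adjusted p of 0.961, 0.722 and 0.942. Parp14 had 1227 and 1263 counts in MPP KO against 1278 and 1263 in MPP WT, Irf9 had 888 and 880 against 917 and 935, and Samd9l had 777 and 951 against 804 and 924. The 33 members that did not pass ranged from -0.55 (Oas3) to 0.73 (Gbp6).

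Every member call in MPP was lost without MPP WT replicate 1 or 2, and each except that of Xaf1 was also lost without MPP KO replicate 1 or 2. Without MPP WT replicate 1 or 2, edgeR passed 0 of all 15467 and 0 of all 15360 genes tested, with 2119 and 2220 at an unadjusted p under 0.05. Over the fits without 1 MPP library, the fold changes ranged from -2.81 to -2.08 for Gbp1, -1.28 to -1.01 for Iigp1, -1.07 to -0.74 for Ifitm1, -0.70 to -0.58 for Oasl2, -0.67 to -0.58 for Gbp3, -0.61 to -0.58 for Ifitm3, 1.64 to 1.76 for Xaf1 and 0.89 to 1.14 for Rsad2. With all libraries but no filter, Gbp1, Ifitm1 and Rsad2 did not pass, at edgeR adjusted p of 0.0622, 0.0586 and 0.0537. Gbp1 and Rsad2 did not pass by DESeq2 either, at DESeq2 adjusted p of 0.126 and 0.0543. In MPP, 4 of 7 erythroid markers rose, with a sum of 562.5 to 712.3 CPM in MPP KO against 321.0 to 415.1 CPM in MPP WT. The plasmacytoid dendritic markers summed to 640.3 to 685.8 CPM in MPP KO against 486.8 to 505.3 CPM in MPP WT, with 2 of 6 higher. Of the monocyte, macrophage and neutrophil markers 2 of 7 rose, as did 1 of 2 stromal and bone markers and 1 of 6 T and NK markers tested. Of the 8 LT-HSC markers 1 rose and 1 fell, and 1 of 5 MPP markers fell. The part of all these markers in the changes was not tested.

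The KO against WT comparisons of the 2 populations share no libraries. Gbp1, Gbp3, Ifitm3 and Oasl2 fell in both populations, which is 44.4% of the 9 members that fell in LT-HSC and 66.7% of the 6 that fell in MPP. The matching shares over all genes were not counted, so this overlap has no background beside it. Xaf1 rose in both. Whether a member changed by a different amount in LT-HSC than in MPP was tested by the interaction of population and genotype over all 8 libraries. Of 41 members, 5 had a lower KO over WT ratio in LT-HSC than in MPP (12.2%, against 8.5% of all genes) and 2 had a higher ratio (4.88%, against 13.6%).

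Rsad2 showed the largest such difference, with 11.8 and 16.5 CPM in LT-HSC KO against 19.4 and 23.8 CPM in LT-HSC WT, but 10.3 and 10.4 CPM in MPP KO against 5.6 and 4.68 CPM in MPP WT. Its difference in log2 fold change, LT-HSC minus MPP, was -1.62 (SE 0.32, edgeR adjusted p = 0.0115). Bst2 had 17.7 and 14.7 CPM in LT-HSC KO against 33.3 and 32.7 CPM in LT-HSC WT, and 50.3 and 42 CPM in MPP KO against 43.3 and 36.9 CPM in MPP WT, a difference of -1.22 (SE 0.23, edgeR adjusted p = 0.00979). In LT-HSC both genes had KO libraries below WT libraries, while in MPP the KO libraries lay above for Rsad2 and overlapped WT for Bst2. Irf1 differed by -1.01 (SE 0.27, edgeR adjusted p = 0.0315) and Gbp2 by -0.97 (SE 0.24, edgeR adjusted p = 0.0237), each with the larger decrease in LT-HSC. Irgm1, which regulates the other immunity-related GTPases, differed by -0.66 (SE 0.20, edgeR adjusted p = 0.0443), with 40.6 and 41.9 CPM in LT-HSC KO against 45.4 and 58 CPM in LT-HSC WT, and 67.4 and 73.6 CPM in MPP KO against 55.5 and 56.3 CPM in MPP WT.

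The opposite sign was seen for Usp18 and Iigp1. Usp18 had 19.9 and 23.9 CPM in LT-HSC KO against 10.2 and 8.26 CPM in LT-HSC WT, and 8.63 and 8.44 CPM in MPP KO against 9.37 and 9.52 CPM in MPP WT, a difference of 1.39 (SE 0.28, edgeR adjusted p = 0.0121). Iigp1 had 98.3 and 99.4 CPM in LT-HSC KO against 121.8 and 130.5 CPM in LT-HSC WT, and 14.1 and 16.4 CPM in MPP KO against 30.8 and 37.2 CPM in MPP WT, a difference of 0.80 (SE 0.19, edgeR adjusted p = 0.0206). For Xaf1 and Gbp1 the difference did not pass, at -0.35 (SE 0.20, edgeR adjusted p = 0.233) and -1.13 (SE 0.69, edgeR adjusted p = 0.278). Of the abundant members, Trim25 differed by -0.26, Ifitm3 by -0.23, Ifitm2 by -0.01, Parp14 by -0.12, Irf9 by -0.24 and Igtp by -0.67, and none of these 6 passed, with edgeR adjusted p from 0.138 to 0.992. Each of the 7 interaction calls was lost without at least 1 MPP library, and all 7 were lost without MPP WT replicate 2, at edgeR adjusted p from 0.0532 to 0.141.

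**Figure D4:**
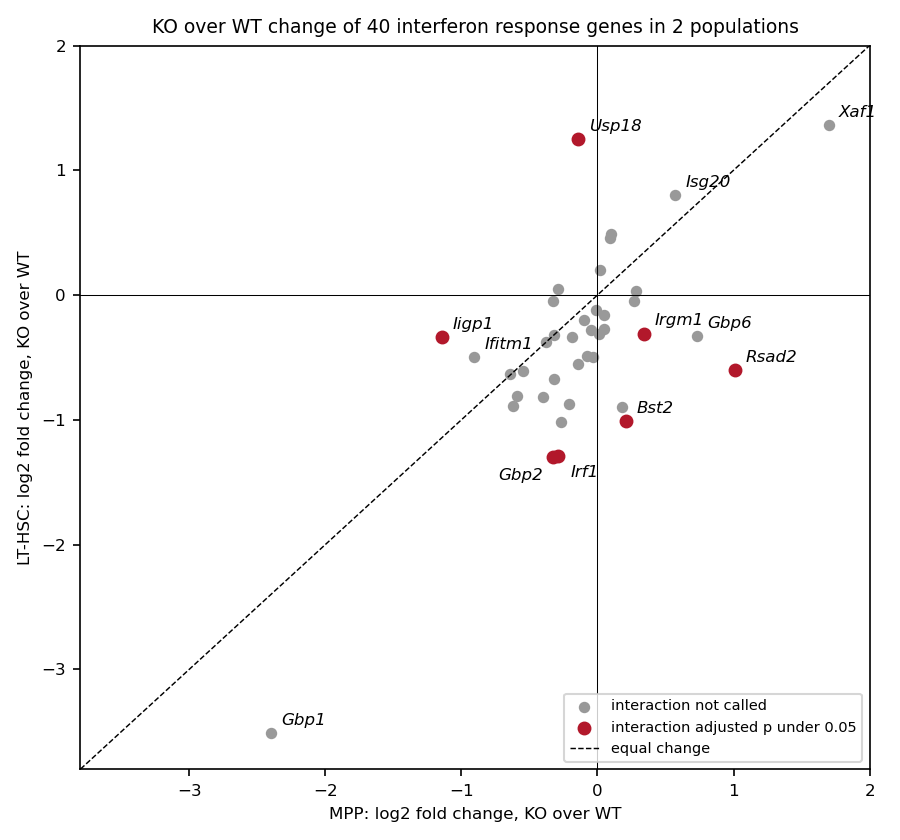
Log2 fold change of KO over WT in LT-HSC (vertical) against that in MPP (horizontal) for the 40 members tested in both populations. Red points had an interaction adjusted p under 0.05, and the dashed line marks equal change. Usp18 and Iigp1 lie above the line and Rsad2, Bst2, Irf1, Gbp2 and Irgm1 below it, while Gbp1 and Xaf1 are far from 0 in the same direction on both axes.

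Among WT cells, 19 of the 40 members tested were higher in LT-HSC than in MPP (47.5%, against 17.4% of all 14660 genes tested) and 0 were lower (against 16.9%). At an unadjusted p under 0.05 edgeR gave 0 lower as well (against 22.8% of all genes), and DESeq2 gave 1 lower after adjustment. Both LT-HSC libraries lay above both MPP libraries for 24 members (60%, against 32.7% of all genes) and below both for 7 (17.5%, against 38.3%). The median log2 fold change of LT-HSC over MPP was 0.71 over the members, against 0.02 over all genes. This comparison uses the same WT libraries as the KO comparisons, so its values stand beside theirs and do not add to them.

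The largest log2 fold changes among the members that passed were those of the GTPase genes Gbp1 and Gbp6. Gbp1 had 24 and 21.3 CPM in LT-HSC WT against 2.01 and 1.67 CPM in MPP WT, a log2 fold change of 3.67 (SE 0.26, edgeR adjusted p = 0.000343). Gbp6 had 46.8 and 34.2 CPM in LT-HSC WT against 8.62 and 7.77 CPM in MPP WT (2.36, SE 0.23, edgeR adjusted p = 0.00122). Gbp2 had 153.5 and 108.9 CPM in LT-HSC WT against 49.4 and 47.7 CPM in MPP WT (1.49, SE 0.20, edgeR adjusted p = 0.00353). In each of these the LT-HSC libraries lay far above the MPP libraries. Iigp1 had 121.8 and 130.5 CPM in LT-HSC WT against 30.8 and 37.2 CPM in MPP WT (1.94, SE 0.15, edgeR adjusted p = 0.000472). Igtp had 162.0 and 111.6 CPM in LT-HSC WT against 57 and 47 CPM in MPP WT (1.45, SE 0.22, edgeR adjusted p = 0.00551). Irgm2 had 79.6 and 67.1 CPM in LT-HSC WT against 40.3 and 38 CPM in MPP WT (0.96, SE 0.15, edgeR adjusted p = 0.00654). Gbp3, at 109.7 and 74.7 CPM in LT-HSC WT against 80.1 and 74.7 CPM in MPP WT, did not pass (0.31, SE 0.21, edgeR adjusted p = 0.286).

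Of the antiviral effectors, Rsad2, Ifitm3, Isg20 and Mx2 were also higher in LT-HSC. Rsad2 had 19.4 and 23.8 CPM in LT-HSC WT against 5.6 and 4.68 CPM in MPP WT (2.12, SE 0.23, edgeR adjusted p = 0.0017). Ifitm3 had 334.3 and 255.5 CPM in LT-HSC WT against 130.2 and 130.7 CPM in MPP WT (1.23, SE 0.17, edgeR adjusted p = 0.00402). Isg20 had 32 and 26.9 CPM in LT-HSC WT against 18.2 and 16.7 CPM in MPP WT (0.81, SE 0.19, edgeR adjusted p = 0.0199). None of these groups overlapped. Mx2, a GTPase relative of Mx1, had 8.96 and 5.76 CPM in LT-HSC WT against 3.51 and 2.76 CPM in MPP WT (1.29, SE 0.36, edgeR adjusted p = 0.0379). Mx1 had 0 counts in the LT-HSC WT libraries against a sum of 39 in MPP WT, at least 5.8-fold lower in LT-HSC when set against 3 counts over the group. Ifitm1 and Ifitm2 did not pass, at -0.11 (SE 0.23, edgeR adjusted p = 0.749) and -0.26 (SE 0.14, edgeR adjusted p = 0.189). Their libraries had 62.4 and 99.7 CPM in LT-HSC WT against 80.1 and 100.2 CPM in MPP WT for Ifitm1, and 110.7 and 137.6 CPM in LT-HSC WT against 151.6 and 156.4 CPM in MPP WT for Ifitm2.

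In the oligoadenylate synthetase family 4 of 5 members were higher in LT-HSC. Oas1a had 64.9 and 26.9 CPM in LT-HSC WT against 19.7 and 13.3 CPM in MPP WT (1.54, SE 0.44, edgeR adjusted p = 0.0389), with a wide spread in LT-HSC. Its fold change was 0.72 (edgeR adjusted p = 0.0845) without LT-HSC WT replicate 1 and 2.02 without LT-HSC WT replicate 2. Oas3 had 44.1 and 50.3 CPM in LT-HSC WT against 25.8 and 26.5 CPM in MPP WT (0.91, SE 0.15, edgeR adjusted p = 0.00712). Oasl2 had 67.3 and 77.6 CPM in LT-HSC WT against 40.5 and 43.9 CPM in MPP WT (0.83, SE 0.14, edgeR adjusted p = 0.00749). The LT-HSC libraries stood above the MPP libraries in each of these genes. Oas2 had 21.8 and 26.7 CPM in LT-HSC WT against 15.4 and 14.7 CPM in MPP WT (0.74, SE 0.18, edgeR adjusted p = 0.0264).

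Of the sensors, regulators and remaining induced genes, Ifih1, Ddx58, Stat2, Ifi44 and Xaf1 were higher in LT-HSC. Ifih1, the long double-stranded RNA sensor MDA5, had 75.4 and 73 CPM in LT-HSC WT against 39.4 and 39.2 CPM in MPP WT (0.97, SE 0.13, edgeR adjusted p = 0.00359). Ddx58 had 86.1 and 96.5 CPM in LT-HSC WT against 66.3 and 70.2 CPM in MPP WT (0.47, SE 0.13, edgeR adjusted p = 0.033). Stat2 had 66.4 and 47.5 CPM in LT-HSC WT against 33.9 and 32.6 CPM in MPP WT (0.83, SE 0.20, edgeR adjusted p = 0.0243). All of these had LT-HSC libraries above the MPP libraries. Ifi44 had 28.5 and 31.3 CPM in LT-HSC WT against 11 and 13.4 CPM in MPP WT (1.34, SE 0.19, edgeR adjusted p = 0.00428). Xaf1 had 24.9 and 21.5 CPM in LT-HSC WT against 12.9 and 13.9 CPM in MPP WT (0.85, SE 0.19, edgeR adjusted p = 0.0193). Among abundant members that did not pass were Irf1 (0.67, SE 0.22, edgeR adjusted p = 0.0574), with 219.3 and 145.3 CPM in LT-HSC WT against 120.6 and 118.7 CPM in MPP WT, Trim25 (-0.15, edgeR adjusted p = 0.357), with 154.2 and 159.9 CPM against 185.2 and 175.7 CPM, and Parp14 (-0.24, edgeR adjusted p = 0.179), with 80.3 and 92.8 CPM against 106.9 and 105.5 CPM. Without MPP WT replicate 1 or 2, fewer members passed as higher in LT-HSC, and so did fewer of all genes. The calls of Isg20, Stat2, Ddx58, Oas2, Oas3, Xaf1 and Mx2 were lost in both fits, and that of Oasl2 without MPP WT replicate 1. With all libraries but no filter, Stat2, Ddx58, Oas1a and Mx2 did not pass, at edgeR adjusted p of 0.0629, 0.052, 0.0988 and 0.0701. Ddx58, Oas2 and Mx2 did not pass by DESeq2, at DESeq2 adjusted p of 0.115, 0.078 and 0.0739. Without LT-HSC WT replicate 1 the fold change of Stat2 was 0.53 (edgeR adjusted p = 0.0298), and Mx2 did not pass (0.90, edgeR adjusted p = 0.0981). More members and more of all genes passed in both directions without LT-HSC WT replicate 2. With 1 WT library left out, the median fold change over the members was 0.58 to 0.73, against -0.04 to 0.03 over all genes.

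**Figure D5:**
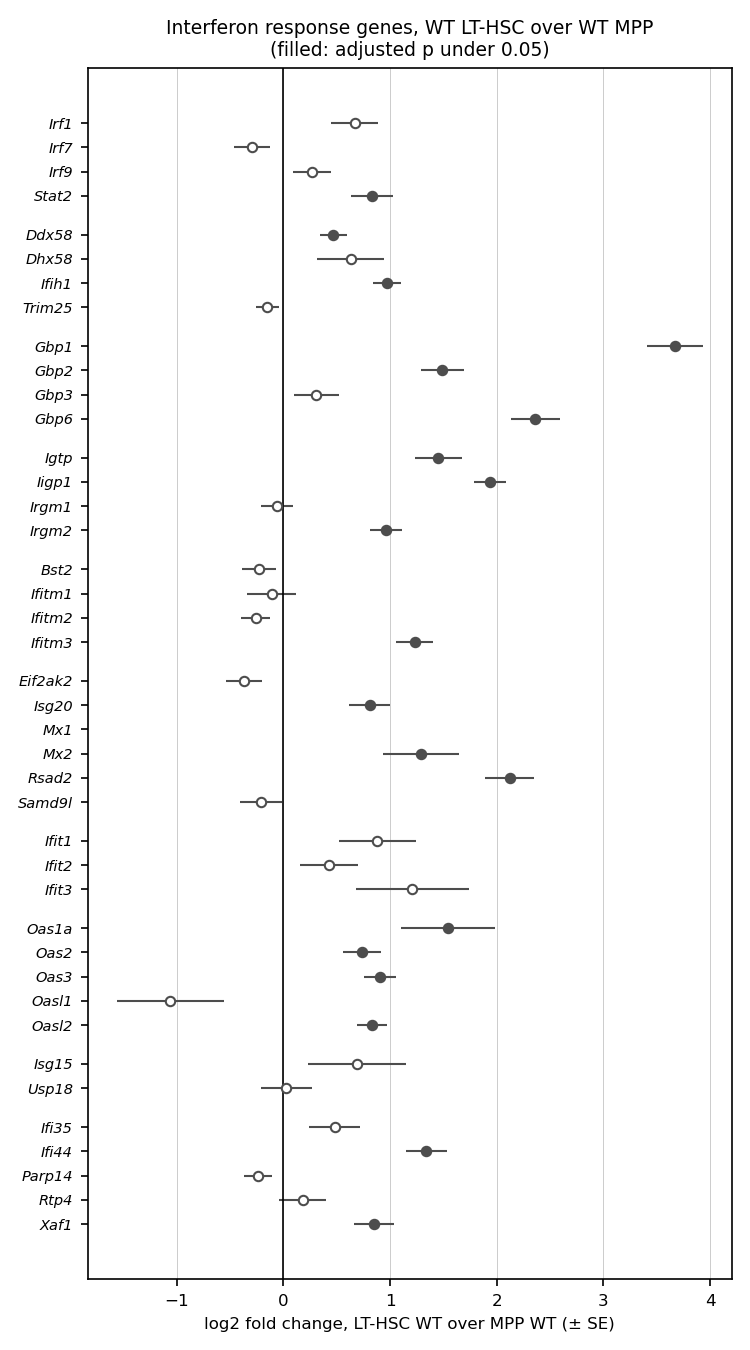
Log2 fold change of LT-HSC WT over MPP WT with its standard error for each tested member, grouped by role. Filled points had an adjusted p under 0.05. All 19 filled points lie to the right of 0, led by Gbp1 at 3.67 and Gbp6 at 2.36.

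Over the 4 groups, 26 members had their highest mean CPM in LT-HSC WT, 7 in MPP KO, 4 in LT-HSC KO and 4 in MPP WT. The same count over all genes is not given, so these numbers have no background beside them. Levels of different genes were compared per kb of exons, which could be had for 40 members. The exception was Gbp1, whose Ensembl ID was not found in the annotation used for exon lengths. Ifitm3 had the highest level per length in LT-HSC, with a mean of 246.0 CPM per kb in LT-HSC KO against 435 CPM per kb in LT-HSC WT. Ifitm2 followed, with 150.5 CPM per kb in LT-HSC KO against 189.5 CPM per kb in LT-HSC WT. In MPP WT the order was the other way round, with 235.1 CPM per kb for Ifitm2 and 192.4 CPM per kb for Ifitm3. Irf7, Irf9, Oasl1 and Eif2ak2 overlap another listed gene by 38 to 532 bases on mm9, and reads in the overlap could belong to either gene.

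Genes of the pathway outside the member list were examined in the same fits, from a list of 71 genes for ligands, receptors, kinases, feedback, regulators, sensing and further induced genes. In LT-HSC KO, 15 of the 51 tested fell (29.4%, against 10.9% of all genes) and 0 rose (against 22.5%). At an unadjusted p under 0.05, 1 was higher by edgeR, and 0 were higher by DESeq2 after adjustment. Gbp4 had 165 and 137 counts in the LT-HSC KO libraries, against 503 and 289 in LT-HSC WT (-1.39, SE 0.27, edgeR adjusted p = 0.00526). Irf5, a regulator of inflammatory cytokines, had 44 and 66 counts in the LT-HSC KO libraries, against 117 and 116 in LT-HSC WT (-1.08, SE 0.30, edgeR adjusted p = 0.0246). The receptor chain Ifnar2 had 145 and 125 counts in the LT-HSC KO libraries, against 313 and 256 in LT-HSC WT (-1.07, SE 0.21, edgeR adjusted p = 0.00495). Uba7, which activates Isg15, had 918 and 695 counts in the LT-HSC KO libraries, against 1859 and 1476 in LT-HSC WT (-1.05, SE 0.19, edgeR adjusted p = 0.00414). Every KO library lay below the WT libraries for these 4 genes. Stat3, a signal transducer of many cytokines, also fell (-0.66, SE 0.16, edgeR adjusted p = 0.0125), and it was named after its values were seen. With the background subtracted 7 of the 51 fell, against 907 of all 14038 genes tested, and 0 rose, against 1331. Without LT-HSC KO replicate 1 or 2 fewer of the 51 fell, and their median fold change was -0.47 or -0.38. Ifng, the gene of interferon gamma, had 0 counts in every LT-HSC library and 6 to 9 counts in MPP KO against 7 to 13 in MPP WT.

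In MPP KO, 4 of the 54 pathway genes tested rose (7.41%, against 4.74% of all genes) and 2 fell (3.7%, against 2.46%), shares near the background. The chemokine gene Ccl5 had 124 and 104 counts in MPP KO against 54 and 45 in MPP WT (1.22, SE 0.18, edgeR adjusted p = 0.028). Gbp4 had 207 and 186 counts in MPP KO against 95 and 99 in MPP WT (1.04, SE 0.12, edgeR adjusted p = 0.0155), the opposite direction to LT-HSC, and the interaction for Gbp4 was -2.43 (SE 0.34, edgeR adjusted p = 0.00369). Zbp1, a sensor of Z-form nucleic acid, rose by 0.85 (SE 0.13, edgeR adjusted p = 0.0302) and Irf4, a lymphoid regulator, by 0.68 (SE 0.07, edgeR adjusted p = 0.0125). Socs3, which inhibits Jak signalling, and Tor3a fell by 0.51 and 0.49, with edgeR adjusted p of 0.025 and 0.0285. Without any one MPP library, no pathway gene passed. By edgeR at an unadjusted p under 0.05, from 4 to 8 were then higher and from 5 to 9 lower.

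In WT cells, 16 of the 54 pathway genes tested were higher in LT-HSC than in MPP (29.6%, against 17.4% of all genes) and 8 were lower (14.8%, against 16.9%). Gbp4 was higher by 3.24 (SE 0.29, edgeR adjusted p = 0.00087), Uba7 by 2.28 (SE 0.17, edgeR adjusted p = 0.000401) and the feedback inhibitor Socs1 by 1.24 (SE 0.27, edgeR adjusted p = 0.0166). Lower in LT-HSC were Irf4, by a log2 fold change of -4.83 (SE 0.43, edgeR adjusted p = 0.00086), and the endosomal sensor Tlr9, by -4.44 (SE 0.41, edgeR adjusted p = 0.000943). Tlr7, another endosomal sensor, had 1 and 0 counts in LT-HSC WT against 260 and 292 in MPP WT, and Ccl5 had 2 and 1 counts in LT-HSC WT against 54 and 45 in MPP WT.

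Of the members that fell in LT-HSC KO, 8 had a matched promoter, and 6 of these held an ISRE core and 4 a GAS core. Of the 3 that rose, Xaf1 and Isg20 had a matched promoter, neither with an ISRE core and 1 with a GAS core. Of the 14 matched members that were higher in WT LT-HSC than in WT MPP, 10 held an ISRE core and 5 a GAS core. These are counts over few promoters, and no test was made.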

How the data were processed

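Poly(A) RNA was sequenced as 50 bp paired-end reads. The submitters' processing notes name CASAVA, TopHat and mm9, while the counter, its use of strand and the annotation are not given in those sources. The authors deposited a raw count per gene and library in 1 table per population. Per the file headers, the authors also gave a log2 fold change and mean log2 CPM, a likelihood ratio score from the authors, and p-values with an FDR from the authors, quoted only where named. In total 0 columns of sample values were left unmatched. The counts were analysed with edgeR 4.0.16 in R 4.3.3 (filterByExpr with a minimum count of 10, TMM, quasi-likelihood test, Benjamini-Hochberg adjustment over all genes tested, threshold 0.05), per population, on the WT libraries and on all 8 libraries for the interaction, where the tables were joined by Ensembl ID and normalized together. The test was also run on simulated data, whose values are not given. CPM use TMM over all 8 libraries. A standard error is the log2 fold change over the square root of F. The background per kb was taken over genes spanning at least 200 kb with at most 10 counts in each LT-HSC WT library. Alternatives were RLE and upper quartile scaling, no filter, DESeq2 1.42.0, a replicate block, background subtraction and leaving out each library.

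Members and lists were chosen with earlier results of these data known. Each member that passed was named in full, with the 6 most abundant members that did not pass per comparison, and up to 4 pathway genes in each direction. A gene that met this rule is not reported here. Levels are CPM in place of counts where LT-HSC and MPP stand side by side, since their totals differ. Intervals and floors (3 counts) cover counting error only.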

Additional observations from a re-analysis of the deposited data

Results flagged for a closer look

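The change of KO over WT differed between the populations, by the interaction test of edgeR's quasi-likelihood fit, for 7 members. The difference in log2 fold change, LT-HSC minus MPP, was -1.62 for Rsad2, -1.22 for Bst2, -1.01 for Irf1, -0.97 for Gbp2 and -0.66 for Irgm1. It was 1.39 for Usp18 and 0.80 for Iigp1. In LT-HSC and in MPP the fold changes themselves were -0.60 and 1.01 for Rsad2, -1.01 and 0.21 for Bst2, -1.29 and -0.29 for Irf1, -1.30 and -0.33 for Gbp2, -0.31 and 0.34 for Irgm1, 1.25 and -0.14 for Usp18, and -0.34 and -1.14 for Iigp1. The call of Irgm1 was lost under upper quartile scaling, at an edgeR adjusted p of 0.0761, and by DESeq2, at a DESeq2 adjusted p of 0.0519. With the background per kb subtracted, the calls of Irf1, Gbp2 and Irgm1 were lost, at edgeR adjusted p of 0.0969, 0.0733 and 0.107. The erythroid markers differed in the same test, with 6 of 7 rising more in LT-HSC KO, and their part in these differences was not tested.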

How the results depend on the processing

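Members that fell in LT-HSC KO numbered 5 with no filter and 4 with the background subtracted, against 9. Of all genes tested, 1444 of 19546 and 907 of 14038 fell in these fits, against 1717 of 15684. In MPP KO, 1 rose with no filter and 1 by DESeq2, against 2. Of all genes tested, 397 of 18830 and 579 of 15179 rose there, against 707 of 14902. In WT cells 1 was lower in LT-HSC by DESeq2, against 0, with 2236 of all 15744 genes lower, against 2478 of 14660. For the interaction 2 were lower with the background subtracted, against 5, with 1100 of all 15580 genes lower, against 1407 of 16551. Leaving out 1 library at a time gave 1 to 3 higher and 3 to 14 lower in LT-HSC KO, 0 to 1 higher and 0 to 0 lower in MPP KO, 11 to 24 higher and 0 to 5 lower in WT LT-HSC against WT MPP, and 0 to 3 higher and 0 to 8 lower for the interaction. The cause was not tested, beyond there being fewer libraries in the last of these. When 1 library is left out of a group, the lone library is assumed to vary like the other groups.

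The replicate numbers are shared by the groups, and deviations of same-numbered libraries correlated at 0.424 in LT-HSC, 0.683 in MPP and 0.458 between the WT groups, but with 2 numbers they were not taken to pair the libraries. With the replicate number as a block, 3 members rose and 21 fell in LT-HSC KO, 7 rose and 15 fell in MPP KO, 24 were higher and 2 lower in WT LT-HSC, and the interaction was higher for 4 and lower for 11. Of all genes, the block passed 30.7% as higher and 25.6% as lower in LT-HSC KO, 23.7% and 24.8% in MPP KO, 27.5% and 25.8% in WT cells, and 22% and 19.8% for the interaction. Abundant members that passed with the block but not in the fit without it included Irf1, Trim25 and Ifitm2 in MPP KO, and Irf9, Ddx58, Iigp1 and Ifitm2 in LT-HSC KO.

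Some members that did not pass changed sign. With 1 library left out at a time, Trim25 ranged from -0.01 to 0.06 in LT-HSC KO, Parp14 from -0.04 to 0.02 and Samd9l from -0.14 to 0.17 in MPP KO, Ifitm1 from -0.49 to 0.17 and Gbp3 from -0.03 to 0.54 in WT LT-HSC over WT MPP, and Ifitm2 from -0.16 to 0.15 for the interaction. With the background subtracted Parp14 was at 0.02 in LT-HSC KO, and for the interaction Parp14 was at 0.02 and Ifitm2 at 0.17. Ifitm2 was at 0.08 for the interaction under upper quartile scaling. With 2 libraries per group and 4976459 to 5479731 counts per LT-HSC library, scarce members such as Mx1, Ifit3 and Isg15 gave wide errors.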

Other observations

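The authors' deposited table gives, at an FDR under 0.05, 4 members higher and 10 lower in LT-HSC KO, and 2 higher and 3 lower in MPP KO. Its share over all genes is not given here. Oasl2 and Oas3 in LT-HSC and Gbp3, Ifitm3 and Oasl2 in MPP did not pass there, at the authors' likelihood ratio FDR of 0.0768 to 0.141. Dhx58, Oas1a and Ifit2 passed there as lower and Mx1 as higher in LT-HSC KO, but not in the fits above. In that table Xaf1 has log2 fold changes of 1.36 in LT-HSC and 1.68 in MPP, and Gbp1 of -3.48 and -2.44.

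Oas1a had a higher level in replicate 1 than in replicate 2 of every group, with 30.6 and 18.4 CPM in LT-HSC KO, 64.9 and 26.9 CPM in LT-HSC WT, 23.4 and 14.1 CPM in MPP KO, and 19.7 and 13.3 CPM in MPP WT. Over all tested members the share higher in replicate 1 was 40% in LT-HSC KO, 50% in LT-HSC WT, 48.8% in MPP KO and 51.2% in MPP WT, against 48.1%, 43.8%, 51.9% and 49.8% of all genes tested in those groups.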
